A study of Homo sapiens with 6 samples.

Results

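Short RNA reads of Caco2 WT and PIWIL2 KO cells were followed at 2 microRNA genes, MIR3184 and MIR3529, each of which lies on the strand opposite another microRNA gene. These 2 rows were chosen by their RefSeq symbol, with it already known that their antisense values exceeded their sense values, out of 3437 rows in the deposited table, of which 49 belong to microRNA genes. Caco2 is an established human cell line of colon epithelium, and the PIWIL2 KO cells are a Caco2 clone made with CRISPR/Cas9 and a guide to an exon of PIWIL2, the PIWI protein that cleaves transposon transcripts in the germline. PIWIL2 KO is 1 clone that kept an unaltered PIWIL2 allele and reduced, not absent, PIWIL2, so an effect of the genotype and a peculiarity of the clone cannot be told apart. RNA came from 3 samples of each genotype, grown to confluency with no other treatment. The table gives 1 value per genotype and strand, in CPM, the reads scaled to those uniquely mapped to hg19, so there is no replicate error and no test between genotypes. Every interval given here is an exact 95% interval on estimated reads and covers counting error only, since amplified reads carry no molecular identifiers and are not independent. The intervals take each value as the reads of 1 library, and would differ if it is an average over samples.

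MicroRNAs are cut from a hairpin in a longer transcript by Drosha in the nucleus and Dicer in the cytoplasm, and an Argonaute protein keeps mainly a single arm of the resulting duplex. The seed, bases 2 to 8 from the 5′ end, pairs with target messenger RNAs. Where both strands of a locus carry an annotated hairpin, the arms of the genes are near-exact complements, and only a count that keeps the strand can assign a read. MIR423 gives miR-423-5p and miR-423-3p, which many cell types express. MIR7-1, MIR7-2 and MIR7-3 all give the same miR-7-5p, a conserved microRNA that is best known from neurons and endocrine cells and that binds the circular RNA CDR1as.

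The mature sequences show why the strand decides the name of a read here, and are given with the seed in capitals as RefSeq lists them.
miR-423-5p: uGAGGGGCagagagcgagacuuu
miR-3184-3p: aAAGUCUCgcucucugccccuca
miR-423-3p: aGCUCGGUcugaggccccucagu
miR-3184-5p: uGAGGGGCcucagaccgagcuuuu
miR-7-5p: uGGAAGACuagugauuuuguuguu
miR-3529-3p: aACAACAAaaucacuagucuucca
miR-7-2-3p: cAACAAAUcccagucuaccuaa
miR-3529-5p: aGGUAGACugggauuuguuguu
miR-7-1-3p: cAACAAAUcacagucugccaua
Over all 23 bases, miR-423-5p is the reverse complement of miR-3184-3p, and over all 24 bases miR-7-5p is that of miR-3529-3p. The longest complementary run was 21 bases between miR-423-3p and miR-3184-5p and 20 bases between miR-7-2-3p and miR-3529-5p, but 9 bases between miR-7-1-3p and miR-3529-5p. Despite lying on opposite strands, miR-423-5p and miR-3184-5p share the seed GAGGGGC. The arms miR-7-1-3p and miR-7-2-3p share the seed AACAAAU and have the same base at 18 of 22 positions.

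In hg19, the MIR3184 row covers chr17:28444104-28444178 on the minus strand, inside MIR423 at chr17:28444097-28444190 on the plus strand. MIR423 lies in NSRP1, which encodes a splicing regulator. Of 13 NSRP1 transcripts annotated across the MIR3184 interval, 11 have an intron there and 2 an exon (GENCODE release 44 on GRCh37). On the strand of MIR3184 itself, an annotated long non-coding RNA has an exon there and another has an intron. The MIR3529 row covers chr15:89155078-89155155 on the minus strand, inside MIR7-2 at chr15:89155056-89155165 on the plus strand. Apart from MIR7-2, no annotated gene overlaps it. The gene opposite MIR3529 in this table is therefore MIR7-2 on chromosome 15, and not MIR7-1. MIR7-1 lies at chr9:86584663-86584772 on the minus strand, in HNRNPK, where 27 of 28 transcripts have an intron, and it has a row of its own.

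The hairpins that face the MIR3184 and MIR3529 rows carry their mature arms, shown in capitals, at the places the row's own arms complement.
MIR423: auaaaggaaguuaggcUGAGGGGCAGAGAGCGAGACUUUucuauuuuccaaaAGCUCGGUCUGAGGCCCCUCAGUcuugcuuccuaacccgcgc
MIR7-2: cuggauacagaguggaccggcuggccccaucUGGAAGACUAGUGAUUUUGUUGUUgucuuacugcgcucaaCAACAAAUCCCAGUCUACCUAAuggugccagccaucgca
Each hairpin matched GRCh37, the same build as hg19, at 1 place. So did every mature sequence but 2, since miR-7-5p and its complement miR-3529-3p each matched 3 places. These are chr9:86584726-86584749 in MIR7-1, chr15:89155087-89155110 in MIR7-2 and chr19:4770712-4770735 in MIR7-3. By its sequence alone, a miR-7-5p read cannot be told apart between the 3 genes, whereas a read of miR-423-5p, miR-423-3p, miR-7-1-3p or miR-7-2-3p has a single exact match.

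**Figure D1:**
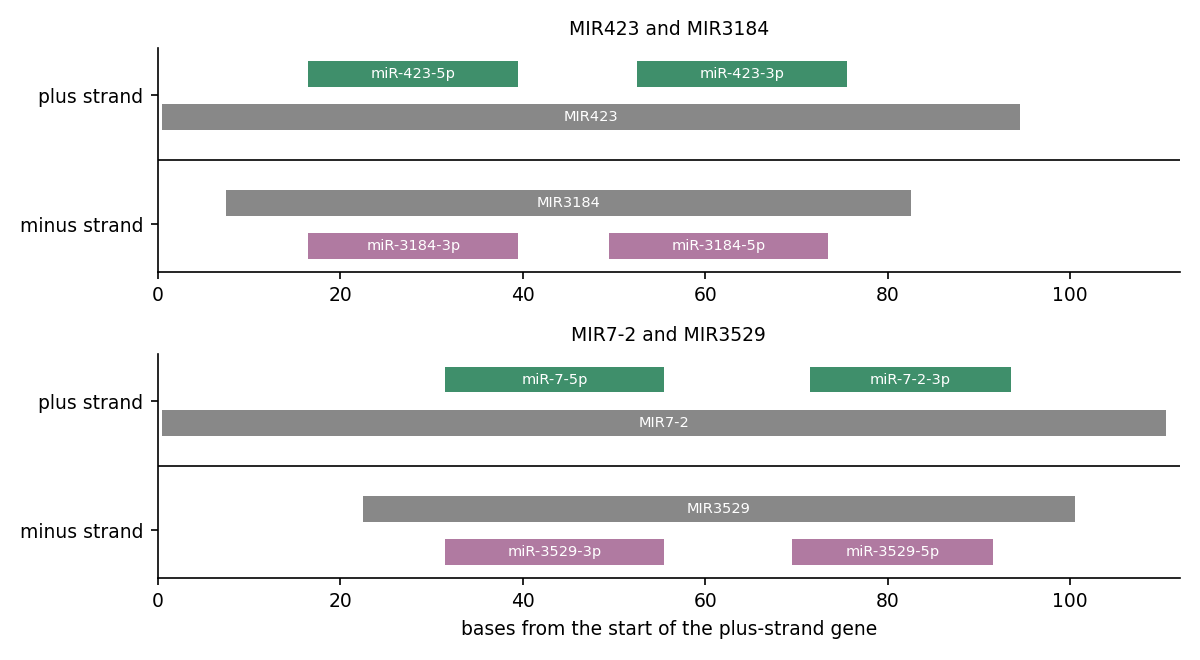
Position of each gene (grey) and mature arm (green on the plus strand, purple on the minus strand) in bases from the start of the plus-strand gene, for MIR423 with MIR3184 and for MIR7-2 with MIR3529. The arms of miR-423-5p and miR-3184-3p fill the same 23 bases, and those of miR-7-5p and miR-3529-3p the same 24 bases.

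At MIR3184, reads came from the antisense strand, the strand of MIR423. Antisense CPM was 44.8 in Caco2 WT (41.3 to 48.6) and 33.1 in PIWIL2 KO (30.1 to 36.3), and sense CPM was 0 in both genotypes. These values correspond to about 578 reads in Caco2 WT and 449 in PIWIL2 KO, with no sense read in either. The antisense share was thus 100% in both genotypes, with an exact interval from 99.4% in Caco2 WT and from 99.2% in PIWIL2 KO. A count of 0 was also given a set limit of 3 reads, narrower than the exact interval. This limit is a sense share of 0.519% in Caco2 WT and 0.668% in PIWIL2 KO. Antisense signal stood at 193 times that limit of 3 reads in Caco2 WT and at 149.7 times in PIWIL2 KO. Signal of miR-3184-5p and miR-3184-3p, the products of MIR3184 itself, was not detectable at this depth.

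MIR3529 had the same strand pattern, with every read on the strand of MIR7-2. Antisense CPM was 17.3 in Caco2 WT (15.1 to 19.7) and 24.2 in PIWIL2 KO (21.7 to 27.0), or about 223 and 329 reads, and sense CPM was again 0 in both genotypes. The antisense share was 100% in both genotypes, with an exact interval from 98.4% in Caco2 WT and from 98.9% in PIWIL2 KO. Up to 3 sense reads would be a share of up to 1.35% in Caco2 WT and 0.912% in PIWIL2 KO, and antisense signal stood at 74.2 and 109.5 times that limit. No signal of miR-3529-5p was therefore detectable. For miR-3529-3p, which matches 3 places, the 0 cannot settle its absence, since how reads with several matches were counted is not given. Because these rows were chosen for antisense above sense, the strand balance is a description. Antisense exceeded sense in 5.29% of the 170 rows that had a mean over both genotypes of at least 0.3 CPM on a strand, and in 10.3% of the 29 microRNA gene rows among them.

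**Figure D2:**
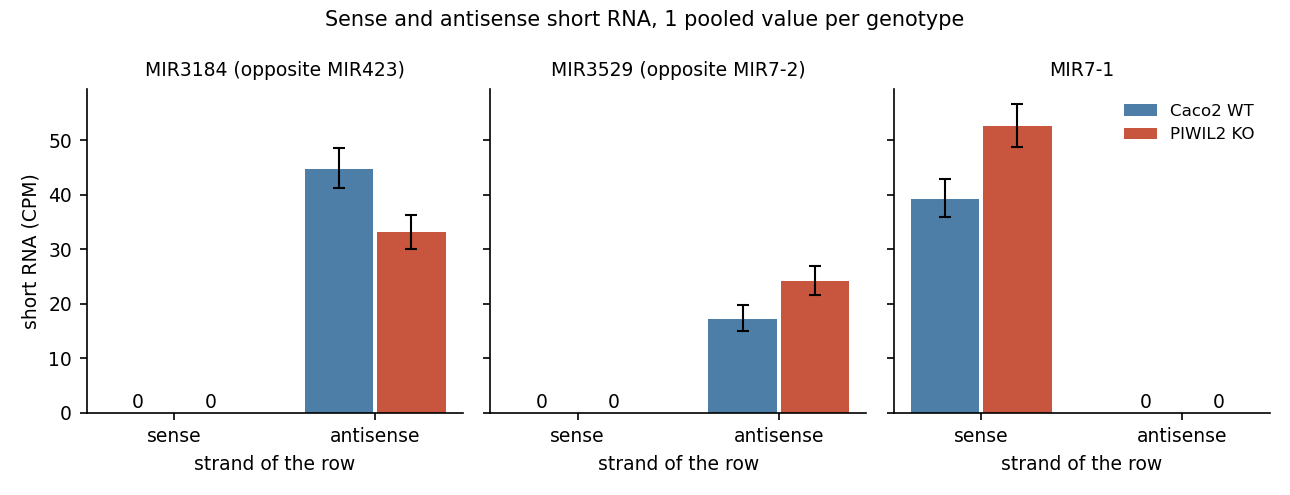
CPM on each strand in Caco2 WT (blue) and PIWIL2 KO (red) for MIR3184, MIR3529 and, for comparison, MIR7-1. Bars are the authors' pooled values and error bars exact 95% counting intervals. All signal of MIR3184 and MIR3529 is antisense and all signal of MIR7-1 is sense.

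Between genotypes, antisense signal at MIR3184 and MIR3529 differed in opposite directions. At MIR3184, the strand of MIR423, the value in PIWIL2 KO was 0.739 times that in Caco2 WT (counting interval 0.652 to 0.837), a log2 ratio of -0.43 after adding 0.1 CPM to both values. At MIR3529, the strand of MIR7-2, the ratio was 1.40 (1.18 to 1.67), a log2 ratio of 0.49. The counting interval of the ratio excluded 1 for both genes. Neither gene reached a 2-fold difference. Of the 9 rows with a mean antisense value of at least 0.3 CPM, 22.2% were lower in PIWIL2 KO by at least 2-fold and 0% higher. The interval lay below a ratio of 1 in 33.3% of these 9 rows and above 1 in 11.1%, which is MIR3529 alone. The median log2 ratio over the 9 rows, with MIR3184 and MIR3529 included, was -0.69. IL12RB2 is among the 9 rows more than once, with the same values, and the median is its ratio. Its reads may thus be counted repeatedly in these shares and in the median. No fold change could be given for the sense strand, where all 4 values of MIR3184 and MIR3529 were 0.

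The quotient of the antisense values of MIR3529 and MIR3184 does not depend on how the libraries are scaled. It was 0.385 in Caco2 WT (0.329 to 0.451) and 0.732 in PIWIL2 KO (0.634 to 0.847). It was thus 1.90 times as high in PIWIL2 KO (1.53 to 2.36), and the miR-7 strand stood higher relative to the miR-423 strand by more than counting error. Per length, MIR3184 stood at 59.8 antisense CPM per 100 bases in Caco2 WT and 44.2 in PIWIL2 KO. MIR3529 stood at 22.1 and 31.1 antisense CPM per 100 bases, below MIR3184 in both genotypes.
The separate ratios do depend on scaling. When PIWIL2 KO was rescaled to the sense sum of all rows, a log2 shift of -0.43, the log2 ratio was -0.86 at MIR3184 (-1.04 to -0.68) and 0.062 at MIR3529 (-0.19 to 0.31). MIR3184 thus stayed lower in PIWIL2 KO under this scaling, and the interval at MIR3529 included no difference. The sense sum includes MIR182, at 343 CPM in Caco2 WT and 480 in PIWIL2 KO, a ratio of 1.40 like that of MIR3529. Centring PIWIL2 KO on the median ratio of protein-coding rows gave -0.37 at MIR3184 (-0.55 to -0.19) and 0.55 at MIR3529 (0.30 to 0.81).

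MIR7-1 gives the same miR-7-5p as the gene opposite MIR3529, so its row was set beside that of MIR3529. Its sense CPM was 39.3 in Caco2 WT (36 to 42.9) and 52.6 in PIWIL2 KO (48.8 to 56.6), and its antisense CPM was 0 in both. The ratio between genotypes was 1.34 (1.19 to 1.5), against 1.40 at MIR3529. The quotient of MIR3529 antisense to MIR7-1 sense was 0.439 in Caco2 WT and 0.461 in PIWIL2 KO, and it changed by a factor of 1.05 (0.851 to 1.29), an interval that includes no change. Of the sum of both rows, MIR3529 antisense held 30.5% in Caco2 WT (27.2% to 34%) and 31.5% in PIWIL2 KO (28.8% to 34.5%). MIR3184, on the other hand, was lower relative to MIR7-1 in PIWIL2 KO, with a quotient of 1.14 in Caco2 WT and 0.630 in PIWIL2 KO, a factor of 0.553 (0.465 to 0.656).
Since miR-7-5p matches both loci, the rows of MIR3529 and MIR7-1 may not be separate measurements. How reads with several matches were counted is not given in the sources used here, and their part in either value was not tested.

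MIR3184 and MIR3529 ranked first and second of all 3437 rows by antisense CPM in each genotype. The next row stood at 3.03 antisense CPM in Caco2 WT and 1.55 in PIWIL2 KO. Together they held 75.9% of all antisense CPM in Caco2 WT and 82.6% in PIWIL2 KO, where 175 rows had any antisense signal. MIR3184 alone held 54.8% and 47.7%, and MIR3529 21.1% and 34.9%. Antisense CPM over all rows summed to 81.8 in Caco2 WT and to 69.5 in PIWIL2 KO, with a log2 ratio of -0.23 (-0.36 to -0.11). Rows for several transcripts of a gene, as at IL12RB2, may hold the same reads. The shares, sums and intervals given here do not allow for that. Leaving out MIR3529, the log2 ratio was -0.51 (-0.67 to -0.36), and without both genes -0.70 (-1.0 to -0.41). Without MIR3184 alone it was -0.024 (-0.21 to 0.16), an interval that includes no difference.

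**Figure D3:**
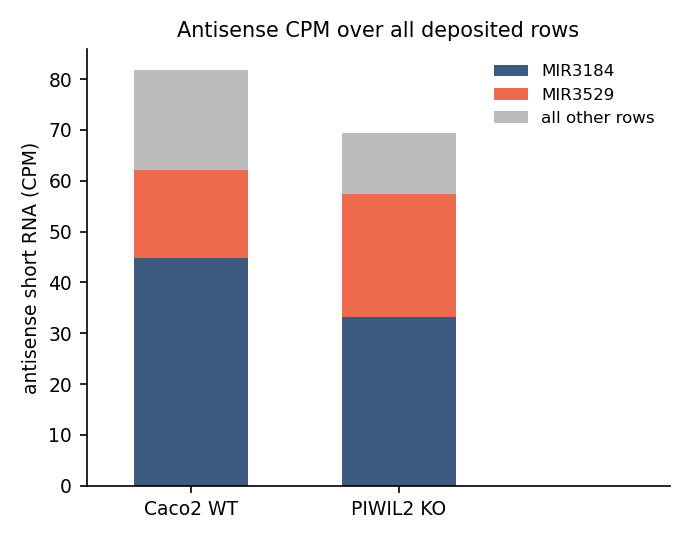
Antisense CPM summed over all 3437 deposited rows in Caco2 WT and PIWIL2 KO, stacked by MIR3184 (dark blue), MIR3529 (orange) and all other rows (grey). The part of MIR3184 shrinks from 44.8 to 33.1 CPM and that of MIR3529 grows from 17.3 to 24.2 CPM.

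Among the 49 microRNA gene rows, all of which lie on the minus strand, none had signal on both strands. Sense signal alone was found in 45 rows and antisense signal alone in 4, namely MIR3184, MIR3529, MIR371B and MIR103B2. Each of these 4 overlaps a microRNA gene on the plus strand, which is MIR371A for MIR371B and MIR103A2 for MIR103B2. In all, 6 rows overlap another microRNA gene, and antisense signal was found in 4 of these and in 0 of the 43 that overlap none. The 4 include MIR3184 and MIR3529, which were chosen with their antisense signal known. This split covers only rows matched to a microRNA gene by name. The 55 rows with no matched name were not classed. Among them is a row on chromosome 1 with 3.03 antisense CPM in Caco2 WT, 0.33 in PIWIL2 KO and no sense signal. The remaining 2, MIR103A1 and MIR451A, had sense signal only, with 5.58 sense CPM in Caco2 WT and 4.97 in PIWIL2 KO for MIR103A1. The plus-strand partner genes have no row of their own in this table, since none of its 688 rows of non-coding transcripts lies on the plus strand. MIR423 and MIR7-2 are therefore seen here only through the antisense columns of MIR3184 and MIR3529. That of MIR3529 may also hold miR-7-5p reads of MIR7-1 or MIR7-3.
MIR371B lies opposite MIR371A, of a cluster known from pluripotent stem cells, and stood at 0.85 antisense CPM in Caco2 WT and 0.15 in PIWIL2 KO, about 11 and 2 reads, with a ratio of 0.176 (0.0186 to 0.793). MIR103B2 rested on about 1 read in Caco2 WT and 2 in PIWIL2 KO, under the limit of 3 reads in both genotypes, and no ratio is given for it. Signal opposite MIR371B and MIR103B2 was thus far below that opposite MIR3184 and MIR3529.

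**Figure D4:**
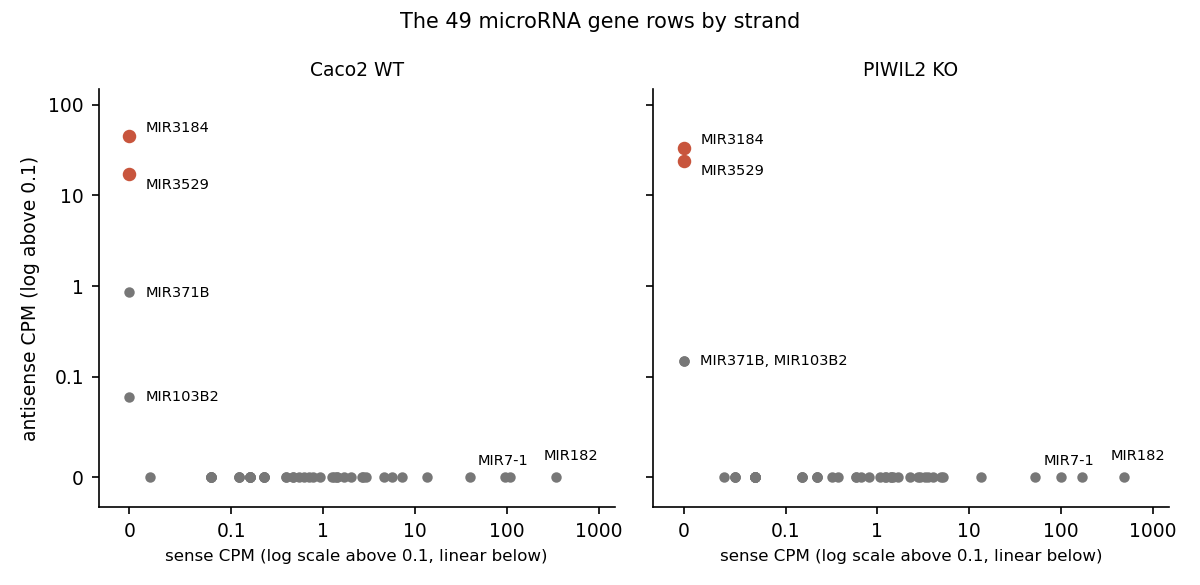
Antisense against sense CPM of the 49 microRNA gene rows in Caco2 WT (left) and PIWIL2 KO (right), on axes that are logarithmic above 0.1 CPM and linear below, with MIR3184 and MIR3529 in red. Every row lies on an axis, 45 on the sense and 4 on the antisense axis.

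The ratios at MIR3184 and MIR3529 can be read beside microRNA genes counted on their own strand. Of 26 microRNA gene rows with a mean sense value of at least 0.3 CPM, 16 were higher and 10 lower in PIWIL2 KO, with a median log2 ratio of 0.36. The counting interval lay above a ratio of 1 in 26.9% of them and below 1 in 15.4%. MIR182 stood at 343 and 480 sense CPM (ratio 1.40, 1.35 to 1.45), the same ratio as MIR3529 on its antisense strand. MIR222 stood at 96.9 and 98.8 sense CPM, a ratio of 1.02 (0.943 to 1.10). MIR1307 was lower in PIWIL2 KO, as MIR3184 was on its antisense strand, at 7.29 and 3.99 sense CPM (ratio 0.547, 0.384 to 0.772). The summed sense signal of microRNA gene rows went from 643 to 857 CPM. The median depended on the settings, at 0.052 with a minimum of 0.1 CPM and 0.23 with a pseudocount of 1 CPM, so the ratios of MIR3184 and MIR3529 have no fixed level to be read against.

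**Figure D5:**
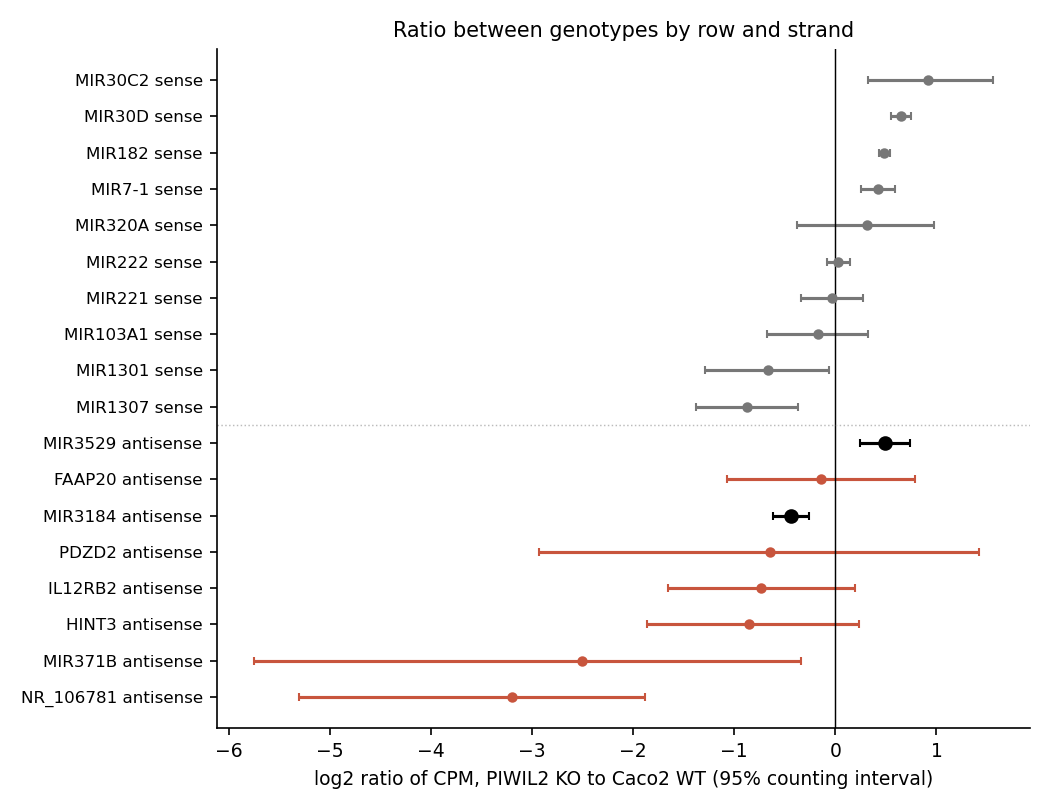
Log2 ratio of CPM in PIWIL2 KO to Caco2 WT with its 95% counting interval, with no value added, for antisense signal of the rows past 0.3 CPM (lower part, rows with the same values shown once) and sense signal of the 10 microRNA gene rows with the highest mean (upper part). MIR3184 and MIR3529, in black, lie on opposite sides of 0, and MIR3529 lies close to MIR7-1 and MIR182.

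By the summed absolute difference of log2(CPM + 0.1) over the 4 columns, the row most like each of the 2 genes was the other, at 1.82. The next were 2 rows of IL12RB2, which encodes a receptor subunit for interleukin 12, at 8.82 from MIR3184 and 7.0 from MIR3529. Both IL12RB2 rows had 2.21 antisense CPM in Caco2 WT, 1.33 in PIWIL2 KO and no sense signal, and they begin close together on chromosome 1. The host genes gave little to compare, since NSRP1 has no row here and the 3 rows of HNRNPK were at 0.01 sense CPM in each genotype. Of 12 microRNA biogenesis genes 1 has a row, at 0 in every column, and of 11 regulators and targets of miR-7 none has one. Of 12 markers of colon epithelium 3 have a row, none above 0.3 CPM, and 1 of 6 markers of other cells has a row, at 0, so the cell type could not be checked from these short RNAs.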

How the data were processed

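Libraries of short RNA came from 3 samples per genotype. The authors trimmed the adapter with Cutadapt (1.15), counted reads per strand with piPipes and deposited CPM (also written RPM), scaled to reads uniquely mapped to hg19, as 1 pooled value per genotype and strand. The study describes its sequencing values as averages over replicates, while the table's name points to concatenated reads. Which holds was not settled, and an average would change the worth of 1 read, the read numbers and every counting interval. The piPipes version is not given in the sources used here. Row names carry RefSeq transcripts marked as 3′ UTR, microRNA hairpins included. RefSeq names (GRCh38.p14) matched 3382 rows, and 55 had none.

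The CPM worth of 1 read was taken as the step that makes most values from 0.05 to 1.5 CPM whole within 0.006 CPM. It was 0.0776 in Caco2 WT and 0.0738 in PIWIL2 KO, or about 12900000 and 13600000 reads. Since 68.7% and 67.7% of low values came out whole, read numbers are approximate, and no count test was run. Exact 95% intervals came from scipy 1.17.1 (Clopper-Pearson, Poisson and conditional odds ratio). Only the search for the worth of 1 read and the Clopper-Pearson interval of the ratio were checked on simulated data. The simulated reads were all whole. A 0 was taken to allow 3 reads, or 0.233 CPM in Caco2 WT and 0.221 in PIWIL2 KO, a set limit and not an exact interval. Log2 ratios of rows in the text used a pseudocount of 0.1 CPM, and those of antisense sums and all intervals used none. Counts used a minimum mean of 0.3 CPM. Sequences came from RefSeq and were matched exactly to GRCh37. Python 3.11.15, numpy 2.4.6 and pandas 2.3.3 were used.

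The members and lists were chosen with earlier results of these data known. Genes named were MIR3184, MIR3529, their partners, hosts and paralogs, the 5 other rows highest in antisense CPM, microRNA gene rows with antisense signal or an overlapping microRNA gene, the 10 highest in sense CPM (given in the plot, with some of them in the text) and the 3 rows most like each member. Alternatives covered the worth of 1 read, pseudocount, minimum, scaling, rows repeated with the same start and values, and leaving out MIR3184 or MIR3529.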

Additional observations from a re-analysis of the deposited data

How the results depend on the processing

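No paired analysis was possible because each genotype has a single pooled value on a strand, and replicates could not be left out either. The sense log2 ratios and the change of the strand odds of MIR3184 and MIR3529 were not computed, since all sense values are 0, and each gene has a single row. The antisense shares are 100% at any worth of 1 read, since all sense values are 0, so this alternative could not move them. Rescaling PIWIL2 KO to the sense sum of all rows gave log2 ratios of -0.86 for MIR3184 and 0.062 for MIR3529, and to that of the other microRNA gene rows -0.85 and 0.075. Centring on protein-coding rows, a shift of 0.066, kept both within their intervals, as did pseudocounts of 0.01 and 1 CPM. For the antisense sum the log2 ratio was -0.024 without MIR3184, -0.51 without MIR3529 and -0.70 without both. The median sense log2 ratio of microRNA gene rows was 0.052 with a minimum of 0.1 CPM and 0.23 with a pseudocount of 1 CPM, and counts of rows stayed within 1.5 times. Of 33 alternatives over 10 results, 24 stayed within these limits, 9 moved further and 0 reversed a direction. The 24 include the antisense shares, which were fixed, and the counts of rows, which have no direction to reverse. Depth limits sense signal below 0.233 CPM (Caco2 WT) and 0.221 CPM (PIWIL2 KO).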

Other observations

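Antisense signal was also found at 5 rows past the minimum of 0.3 CPM that belong to named genes other than microRNA genes, or to no matched name, and that are not copies of each other. FAAP20, which encodes a subunit of the Fanconi anaemia core complex, stood at 1.71 antisense CPM in Caco2 WT and 1.55 in PIWIL2 KO (ratio 0.906, counting interval 0.475 to 1.73). HINT3, which encodes a nucleotide hydrolase, stood at 1.82 and 1.01 antisense CPM (0.555, 0.276 to 1.17), and IL12RB2 at 2.21 and 1.33 (0.602, 0.319 to 1.145). For FAAP20, HINT3 and IL12RB2 the interval included a ratio of 1. PDZD2, chosen for mention after its values were seen, rested on about 6 reads in Caco2 WT and 4 in PIWIL2 KO. The row NR_106781, at 567705 on chromosome 1, has no matched gene name and stood at 3.03 and 0.33 antisense CPM (0.109, 0.0253 to 0.270), the lowest ratio among the 9 antisense rows past the minimum. None of these rows came near the antisense level of MIR3184 or MIR3529.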
